A study of Mus musculus with 26 samples.

Results

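The region described here is the first 20.0 Mb of sequenced mouse chromosome 9, from 3000000 to 23000000 on GRCm38. Its members are the peaks called there from pulldowns of chromatin with oligos against the long noncoding RNA MaTAR25. The region was chosen on the peaks themselves, so peak numbers and scores inside it are given as a description with no test. The 4 deposited peak lists placed 2121 of their 273053 peaks in the region. The list of the total oligo pool in 4T1 cells held 635 of 76806, the odd pool in 4T1 held 532 of 61311, the even pool in 4T1 held 513 of 64607, and the total pool in NDL cells held 441 of 70329.

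Chromatin isolation by RNA purification (ChIRP) had been run with biotinylated antisense oligos on crosslinked cells, and RNA-seq had been run on 4T1 control cells and on knockout clones of MaTAR25 (gene 1200007C13Rik on chromosome 2). 4T1 is a triple-negative mammary carcinoma line from a BALB/c mouse; its control cells carried a guide against Renilla luciferase, and KO1 and KO2 are each 1 clone grown from a single cell after CRISPR/Cas9 deletion across the MaTAR25 start site. The labels gave the NDL material as primary cells of strain FVB with genotype MMTV-PyMT, while the study's methods described cells carrying an activated Neu transgene under the MMTV promoter, so the NDL genotype is uncertain here. RNA-seq comprised 2 control, 3 KO1 and 4 KO2 libraries. Each peak list was made over pooled pulldowns, namely 2 for the 4T1 total pool, 2 for the odd pool, 3 for the even pool and 2 for NDL, so a list has no replicate spread, and the depth of the pulldown libraries is unknown. Nothing in the labels said that libraries of a group came from separate cultures, and p-values therefore measure the spread between libraries only.

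In ChIRP, short oligos complementary to an RNA pull the RNA down together with the DNA it is bound to, and splitting the oligos into an odd and an even pool gives separate captures of the same RNA, since no oligo is in both. Stretches of genomic DNA that resemble an oligo can also be pulled down by the oligo itself, which makes the oligo sequences part of the reading of any peak. The region holds a cluster of matrix metalloproteinase genes, which encode enzymes that cut extracellular matrix and are known for their part in invasion of mammary tumours, beside the inhibitors of apoptosis Birc2 and Birc3, the coactivator Yap1, and, toward its distal end, the DNA methyltransferase Dnmt1 and the chromatin remodeller Smarca4.

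The sites below lay in 8 of the 10 highest-scoring 4T1 total peaks of the region and are shown because each held at least 12 bases in a row identical to 1 of the 14 MaTAR25 oligos. Peaks are numbered by score within the region, coordinates are GRCm38, and sequences run 5′ to 3′ on the strand given, with the run shared with the oligo in capitals. The oligos themselves follow, with the bases matched in these peaks in capitals.
Peak 2, chr9:14021640-14021677 (minus strand), oligo 6: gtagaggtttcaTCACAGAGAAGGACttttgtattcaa
Peak 3, chr9:9616140-9616177 (plus strand), oligo 2: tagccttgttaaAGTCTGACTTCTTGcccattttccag
Peak 4, chr9:14167041-14167078 (minus strand), oligo 12: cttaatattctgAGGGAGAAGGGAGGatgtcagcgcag
Peak 5, chr9:20858759-20858795 (minus strand), oligo 4: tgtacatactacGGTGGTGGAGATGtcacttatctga
Peak 6, chr9:8929296-8929333 (minus strand), oligo 4: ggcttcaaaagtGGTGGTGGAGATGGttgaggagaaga
Peak 7, chr9:12210652-12210688 (minus strand), oligo 4: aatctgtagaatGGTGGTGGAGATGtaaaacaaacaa
Peak 8, chr9:12165823-12165859 (minus strand), oligo 6: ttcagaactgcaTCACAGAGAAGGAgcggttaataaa
Peak 10, chr9:16279709-16279746 (minus strand), oligo 12: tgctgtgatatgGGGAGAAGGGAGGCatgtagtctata
Oligo 2: aagAGTCTGACTTCTTGgca
Oligo 4: caGGTGGTGGAGATGGaatg
Oligo 6: agTCACAGAGAAGGACggcg
Oligo 12: aatAGGGAGAAGGGAGGCtc

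The 9 RNA-seq libraries held 25367211 to 61110585 counts on genes, and 15023 of 45318 genes passed the filter on low counts. Counts of the targeted gene were 35 and 30 for control, 2, 7 and 0 for KO1, and 11, 1, 9 and 6 for KO2, so both clones lay below the controls without overlap (log2 fold change -2.63 ± 0.82 SE, adjusted p = 0.0561, edgeR). All 6 markers of mammary epithelial or carcinoma cells reached 1 CPM (the count scaled to a common library size), with a summed level of 2113 to 7193 CPM, while 0 of 4 leukocyte markers, 1 of 3 endothelial markers and 2 of 4 fibroblast markers did. Some markers moved with the knockout. Col1a1, a fibroblast collagen gene, fell by 3.0 on the log2 scale in KO against control (adjusted p = 0.0132, edgeR), from 3.99 and 2.65 CPM to 0.0842 to 0.995. The other fibroblast marker that reached 1 CPM, Pdgfra, stood at 11.7 to 46.9 CPM and was not called (0.58, adjusted p = 0.390, edgeR). The endothelial cadherin gene Cdh5 was called in KO2 (adjusted p = 0.0317), at 0.0905 to 1.39 CPM there and at most 0.022 elsewhere. The other endothelial markers, Pecam1 and Kdr, had at most 0.279 and 0.0421 CPM. The epithelial cadherin gene Cdh1 fell in KO by 0.65 (adjusted p = 0.0684), and the keratin genes Krt7 (1.89, adjusted p = 0.00468) and Krt8 (1.32, adjusted p = 0.0232) rose in KO1. The part of these in the gene changes below was not tested. KO2 replicate 3 stood apart from the other KO2 libraries in several genes below, and its values are given there.

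Peaks were fewer per Mb in the region than in the rest of chromosome 9 in the full lists, with the lowest ratio in NDL. The 4T1 total list had 31.8 peaks per Mb in the region and 37.2 in the remaining 101.6 Mb, a ratio of 0.854 (exact 95% interval 0.784 to 0.929). The ratio was 0.915 for the 4T1 odd list (0.832 to 1.00), 0.833 for the even list (0.757 to 0.915) and 0.655 for the NDL list (0.591 to 0.723). The odd interval reached 1.00, and the odd ratio turned to 1.06 among peaks scoring at least 100 and to 1.11 among the 10000 highest of the list. These intervals, like all those on peaks below, cover counting error over peaks only.

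The comparison depended on what the region was set against. The other autosomes without chromosomes 2 and 3 held 30.1, 24.0, 25.2 and 27.2 peaks per Mb in the 4T1 total, odd, even and NDL lists, so the region was 1.06, 1.11, 1.02 and 0.810 times as dense as they were, and the rest of chromosome 9 was denser than both. The first 10 Mb of the region held fewer peaks than the last 10 Mb in each list, at 27.1 against 36.4 per Mb in the 4T1 total list, 24.8 against 28.4 in the odd list, 23.1 against 28.2 in the even list and 19.5 against 24.6 in NDL. In the 4T1 total list, 1-Mb bins held from 16 peaks in the bin at 4 Mb to 58 in the bin at 14 Mb, with a median of 30.5, while the median bin in the rest of the chromosome held 37. Only 91662 bases of the region were unknown in the assembly.

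**Figure D1:**
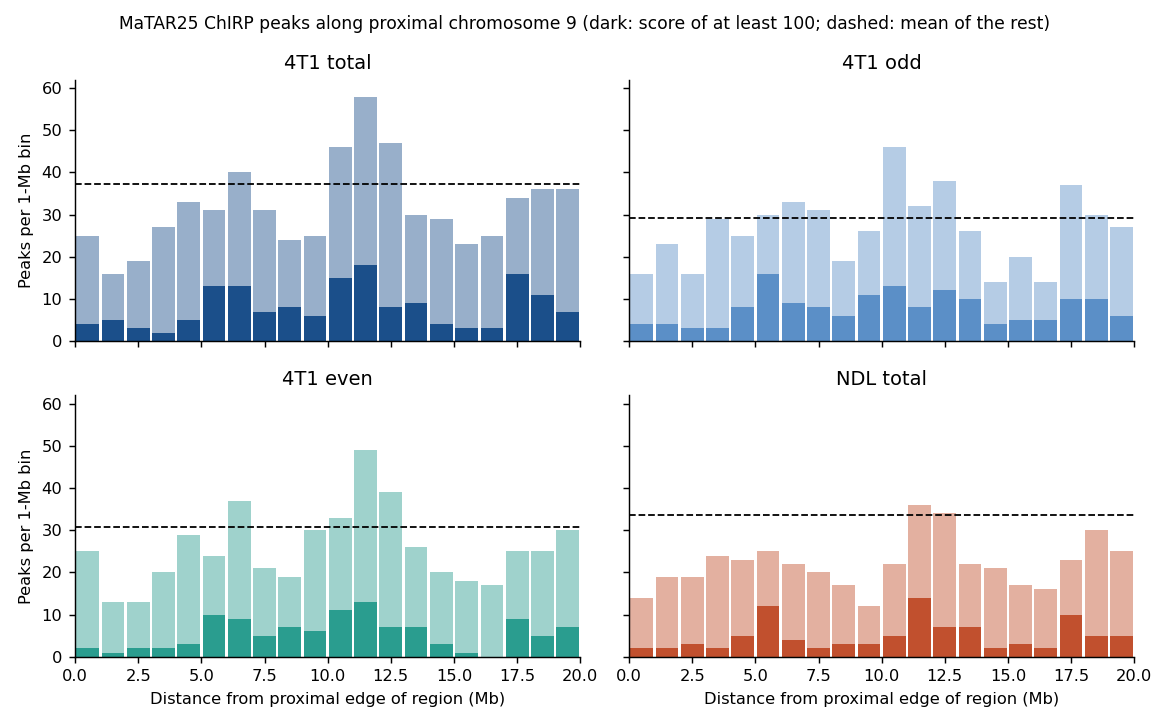
Number of ChIRP peaks in each 1-Mb bin of the region (y axis) against distance in Mb from the start of the region at 3000000 (x axis), 1 panel for each of the 4 lists. The dark part of a bar is peaks with a score of at least 100, and the dashed line is the mean of the rest of the chromosome. In the 4T1 total list the bins run from 16 to 58 peaks, with the highest at chromosome position 14 Mb. Most NDL bins sit below their line.

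The upper edge of the region fell in an ordinary stretch. In the 4T1 total list the last peak inside ended at 22990071 with a score of 632.6, the first beyond it started at 23012730 with a score of 41.2, and the last Mb inside held 36 peaks against 38 in the first Mb outside.

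Peaks of the region scored close to the middle of their own lists. A larger share of them than in the rest of the chromosome was among the very highest, with intervals apart only in the 4T1 total and even lists. As the region was chosen on its peaks, intervals that lie apart are a description and no test. The score is the value HOMER gave each peak, with a scaling not given in the sources used here, so it was read as a percentile of the list. The median percentile of the region's peaks was 54.0 in the 4T1 total list, 53.5 in the odd list, 54.4 in the even list and 53.2 in NDL, against 52.7, 50.7, 51.6 and 51.3 in the rest of the chromosome. Among the 1000 highest-scoring peaks of each list were 25 of the 635 4T1 total peaks (3.94%, Wilson 95% interval 2.68 to 5.75), 18 of the odd peaks (3.38%), 26 of the even peaks (5.07%, 3.48 to 7.32) and 12 of the NDL peaks (2.72%, 1.56 to 4.70). The interval of the odd peaks was 2.15 to 5.28. The rest of the chromosome had 1.91% (1.52 to 2.39), 1.90% (1.46 to 2.45), 2.17% (1.72 to 2.75) and 1.69% (1.31 to 2.18) of its peaks there. The best rank reached in the region was 3 in the 4T1 total and odd lists and 4 in the even list, all at the same site near 14.2 Mb, and 69 in NDL, at another site.

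The 4T1 and NDL lists shared fewer peaks in the region than elsewhere on the chromosome. Of the 635 4T1 total peaks, 333 overlapped an NDL peak by at least 1 bp (52.4%, 48.6 to 56.3), against 65.4% (63.9 to 66.9) in the rest of chromosome 9. Seen from NDL, 75.5% of its 441 peaks overlapped a 4T1 total peak, against 72.2% in the rest, so the lower sharing was on the 4T1 side. Within 4T1, 60.3% of the total-pool peaks overlapped an even-pool peak and 43.0% an odd-pool peak, against 64.8% and 37.1% in the rest. A peak of each other list was overlapped by 95 of the 635 (15%), and 73 (11.5%) overlapped none.

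The scores of shared peaks differed between the cell types mainly in 1 stretch of the region. The log2 ratio of the 4T1 total to the NDL score stepped up between peaks ending at 8972637 and starting at 9070165, and stepped down between peaks ending at 14557622 and starting at 14612177. The bounds were placed from these ratios, so the values for the stretch of 5.56 Mb between them are a description. Its 83 shared peaks had a median log2 ratio of 1.26 (order-statistic 95% interval 1.16 to 1.43), which is 2.39-fold, and 81 of 83 scored higher in 4T1. The median was 0.14 (0.01 to 0.26) over the 89 shared peaks proximal to it, 0.30 (0.22 to 0.37) over the 161 distal to it, and 0.12 over the 2470 in the rest of the chromosome and over all 51021 shared peaks of the genome. Because the scores of separate lists may be scaled differently, the same was computed on percentiles, where 4T1 exceeded NDL by a median of 20.4 points in the stretch, against 0.313 proximal, 2.39 distal and 0.124 in the rest.

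The even pool showed the same step and the odd pool gave an unclear one. For the even list over NDL, the medians were 0.00 proximal, 1.13 in the stretch (0.88 to 1.37) and -0.12 distal, and the percentile difference was 19.6 points in the stretch against 1.43 and 0.231. For the odd list over NDL, the medians were 1.10 (0.49 to 1.57), 1.95 (1.04 to 2.47) and 0.81, with overlapping intervals, and the percentile difference was 8.78 points in the stretch and 14.2 proximal to it. Between the 4T1 total and even lists, which come from the same cells, the medians were 0.22, 0.03 and 0.30, with no step up.

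Peak number in this stretch did not clearly follow the score. The 4T1 total list had 35.4 peaks per Mb there, against 25.2 proximal, 34.0 distal and 37.2 in the rest of the chromosome. NDL had 19.8, against 20.9, 24.4 and 33.7. An NDL peak was overlapped by 42.1% of the 4T1 total peaks in the stretch, 58.6% proximal and 56.3% distal. Across the genome, 21 of 2520 1-Mb bins (0.833%) had a median log2 ratio above 1, of which 6 lay in the region, 9 on chromosome 9 between 32 and 42 Mb, 6 on chromosome 15, and 0 on any other chromosome. With the even list over NDL, 4 of 2335 bins exceeded 1, of which 3 lay in the region, 1 on chromosome 15 and 0 elsewhere on chromosome 9, and with the odd list over NDL, whose genome-wide median was 1.00, 1126 of 2216 did, 12 of them in the region. Why these stretches differ between the cell types was not tested.

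**Figure D2:**
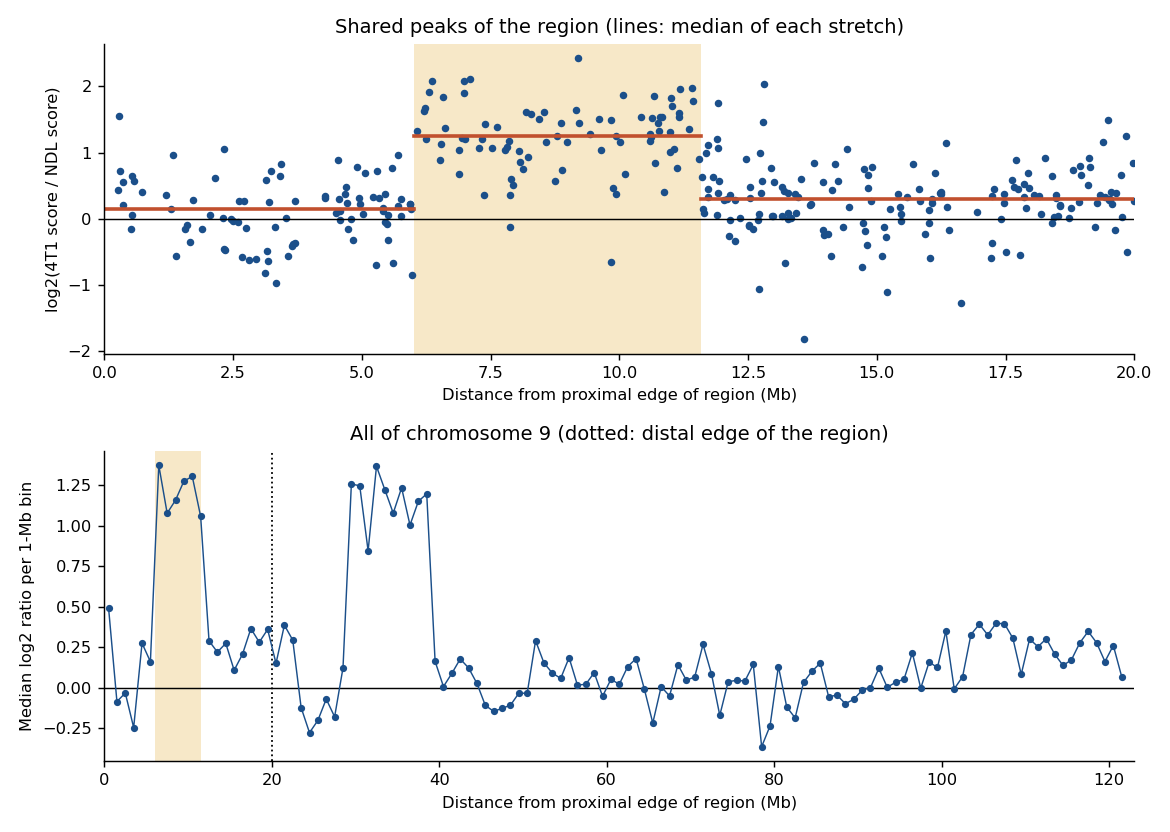
Upper panel, log2 ratio of the 4T1 total to the NDL peak score (y axis) for each shared peak against its distance in Mb from the start of the region (x axis), with lines at the medians of 0.14, 1.26 and 0.30 and the stretch of 5.56 Mb shaded. Lower panel, the median ratio in 1-Mb bins of all of chromosome 9 against the same distance, with the distal edge of the region dotted. The points of the shaded stretch lie almost all above 0, and a separate group of raised bins lies between chromosome positions 32 and 42 Mb.

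The peaks held sequence resembling the oligos far more often than peak-free DNA of the region did. On 1 strand or the other, at least 12 bases in a row of a MaTAR25 oligo stood in 148 of the 635 4T1 total peaks (23.3%, 20.2 to 26.8), 22.4% of the odd peaks, 18.5% of the even peaks and 26.1% of the NDL peaks. Of 37295 tiles of 500 bp in the region that no peak touched, 193 held one (0.517%). The region did not stand out in this, since the shares in the rest of the chromosome were 23.2%, 22.8%, 20.3% and 23.2%. The 8 oligos of the Ppib control pulldown, against which peaks were called, matched 0 of the 635 4T1 total peaks (upper Wilson limit 0.601%), 1 of the 532 odd peaks, and 0 of the even and NDL peaks, and 0.670% of the peak-free tiles.

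Matches were more frequent in peaks of high score. At a score of at least 100 they were found in 45.6% of 160 4T1 total peaks, 47.1% of 155 odd, 41.8% of 110 even and 48.0% of 98 NDL peaks, and among lower peaks in 15.8%, 12.2%, 12.2% and 19.8%. Among the 50 highest peaks of each list in the region, the shares were 64.0%, 70.0%, 64.0% and 60.0%. For each peak and oligo the match nearest the peak's centre was taken, and in 4T1 total peaks 71.5% of these lay within 100 bp of it. If placed evenly along the peaks, 32.4% would lie there, a baseline that does not allow for taking the nearest match. The corresponding shares were 54.8% for the odd, 72.4% for the even and 65.5% for the NDL list, against 29.6%, 31.1% and 31.2% if placed evenly.

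The pools differed by their own oligos. In the odd list 16.7% of peaks matched an odd oligo and 6.39% an even one, in the even list 2.53% matched an odd and 16.6% an even one, and in the 4T1 total list 9.61% matched an odd and 14.0% an even one. Oligo 4, printed above, was matched in 23, 18, 20 and 19 peaks of the 4T1 total, odd, even and NDL lists. Oligo 12 was matched in 34 peaks of the 4T1 total list and 4 of the odd list, whose pool lacks it. What share of the signal at such peaks came by way of MaTAR25 RNA was not tested. Peaks also had a higher GC content than the tiles, with a median of 42.2% in the 4T1 total list against 39.8%, and runs of at least 4 TGG or CCA units stood in 3.46% of them against 0.185% of tiles. Such runs stood in 0.940% of the odd, 4.09% of the even and 5.90% of the NDL peaks.

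**Figure D3:**
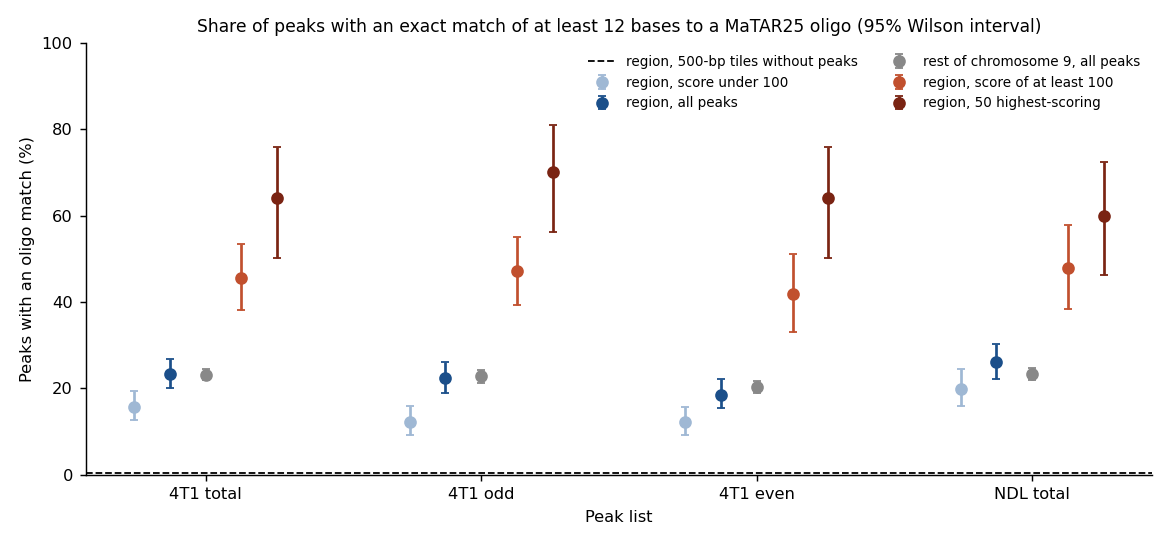
Share of peaks in percent that hold at least 12 bases in a row of a MaTAR25 oligo (y axis) for each list, for peaks of the region with a score under 100, all peaks of the region, the rest of chromosome 9, peaks of the region with a score of at least 100 and the 50 highest peaks of the region; bars are Wilson 95% intervals and the dashed line is the share in peak-free tiles, 0.517%. In each list the share rises from 12.2% to 19.8% under a score of 100 to 60.0% to 70.0% among the 50 highest.

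Of the 10 highest 4T1 total peaks, 9 were also peaks of the even list, 9 of the odd list and 9 of the NDL list. The highest, peak 1, spanned 14164926 to 14165931, between genes, with a 4T1 total score of 2189.9, an odd score of 4713.5, an even score of 1291.6 and an NDL score of 722.1. Its longest run shared with any oligo was 10 bases, so it is not among the sequences printed above. Peak 4 lay next to it, at 14166540 to 14167481, and scored 1004.3 in 4T1 total and 345.8 in NDL, with no odd peak there.

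The other high peaks in the stretch that differed between the cell types scored far lower in NDL as well. The bounds of the stretch were placed from the ratios of shared peaks, these among them, so this is a description. Peak 2 (14021427 to 14022303, intergenic) scored 1614.2 in 4T1 total and 498.3 in NDL. Peak 3 (9615881 to 9616632, intergenic) scored 1304.9 in 4T1 total, 503.8 in NDL and 67.1 in the odd list. Peaks 7 and 8 scored 832.0 and 815.5 in 4T1 total and 304.0 and 260.0 in NDL. All 8 printed sites matched even oligos, which the odd pool lacks. Peaks 2, 5, 6, 7 and 8 scored 2752.8, 2400.6, 1878.2, 1254.7 and 1126.3 in the odd list. Only the longest match in each peak was sought, so shorter runs shared with odd oligos were not looked for. Odd oligo 3 shares a run of 8 bases with oligo 4, and odd oligo 11 a run of 7 with oligo 6. How these peaks came into the odd list was not tested.

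Peak 9 differed from these, lying at 13483518 to 13484142 in an intron of Maml2, a coactivator of Notch signalling. It scored 746.8 in 4T1 total and 2817.2 in the odd list, and was in neither the even nor the NDL list. Outside the stretch the 4T1 total and NDL scores were closer: 995.3 and 790.7 at peak 5 (20858551 to 20859175, intergenic), 867.3 and 741.2 at peak 6 (8929097 to 8929721, in an intron of the progesterone receptor gene Pgr), and 733.1 and 692.6 at peak 10 (16279521 to 16280270, in an intron of the protocadherin gene Fat3). The next peak below the 10 scored 719.8.

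By the authors' annotation the peaks of the region lay between genes more often than those in the rest of the chromosome, at 48.0% against 40.0% in the 4T1 total list, 46.8% against 40.6% in the odd list, 49.5% against 40.8% in the even list and 47.8% against 40.9% in NDL. Introns held 41.3%, 42.5%, 41.1% and 42.0%, and promoters 3.31% to 4.08%. In the 4T1 total list, bodies of genes that passed the RNA-seq filter held 38.6 peaks per Mb, bodies of other genes 31.1, and the rest of the region 29.5.

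In the 4T1 total list, bodies of genes that did not pass the filter held 156 peaks, and bodies of tested genes also held 156. The density was lower in the former, as given above. None of the 6 listed neural adhesion molecules, channels and receptors reached the filter on low counts. Cntn5, a neuronal cell adhesion gene of over 1 Mb at 9660891 to 10904775, held 45, 41, 28 and 26 peaks in the 4T1 total, odd, even and NDL lists and had at most 2 counts in a library. Fat3 held 23, 22, 22 and 15 peaks and had 0 counts in all 9 libraries, which allows up to 3 counts in each. The melatonin receptor gene Mtnr1b held 5, 4, 2 and 0 peaks with at most 4 counts, the glutamate receptor subunit gene Gria4 held 6, 8, 5 and 6 with at most 1, and Pgr and the cation channel gene Trpc6 held 2 to 4 in each list with at most 1. Per Mb of gene, the 4T1 total list held 36.2 peaks in Cntn5, 38.9 in Fat3 and 99.9 in Mtnr1b. It held 15.9 in Gria4, 58.2 in Pgr and 22.0 in Trpc6, beside 31.8 in the whole region. NDL expression was not measured in this series.

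For RNA, 416 annotated genes lay wholly in the region, of which 281 were in the count table and 129 passed the filter. With KO1 and KO2 as 1 group against control, 29 of the 129 passed an adjusted p of 0.1 (22.5%, Wilson 95% interval 16.1 to 30.4), 19 higher and 10 lower. Over all genes tested the share was 22.6%, with 11.9% higher and 10.7% lower, so the number of calls in the region was near the background. The median log2 fold change was 0.21 in the region, 0.00 in the rest of chromosome 9 and 0.06 over all genes tested.

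Clone by clone the shares were near the background as well. In KO1, 35 of 129 were called against control (27.1%, 23 higher and 12 lower), with a background of 31.6% (15.9% higher and 15.7% lower). In KO2 it was 44 (34.1%, 28 higher and 16 lower), with a background of 31.4% (16.5% higher and 15.0% lower). Between the clones 22 were called (17.1%, 13 higher in KO1 and 9 higher in KO2), with a background of 19.6% (9.43% and 10.2%). All of these comparisons with control share the same 2 control libraries, and leaving out either one brought the count for KO1 and KO2 together from 29 down to 3 or 4.

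Genes with and without a peak were called in shares whose intervals overlapped. Of the tested genes, 64 held at least 1 4T1 total peak and 16 of them passed the test of KO against control (25%, 16 to 36.8), against 13 of the 65 without one (20.0%, 12.1 to 31.3). In the stretch where 4T1 and NDL scores differed, 1 of 11 tested genes was called between KO and control and 1 of 11 between KO1 and control. Between KO2 and control it was 7 of 11, 3 higher and 4 lower, beside 34.1% of the region and 31.4% of all genes tested, in a comparison whose count for the region fell from 44 to 12 or 8 without control replicate 1 or 2. Only 2 of the 11 were called between the clones, Sesn3 and Kdm4dl, the latter named after its values were seen.

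**Figure D4:**
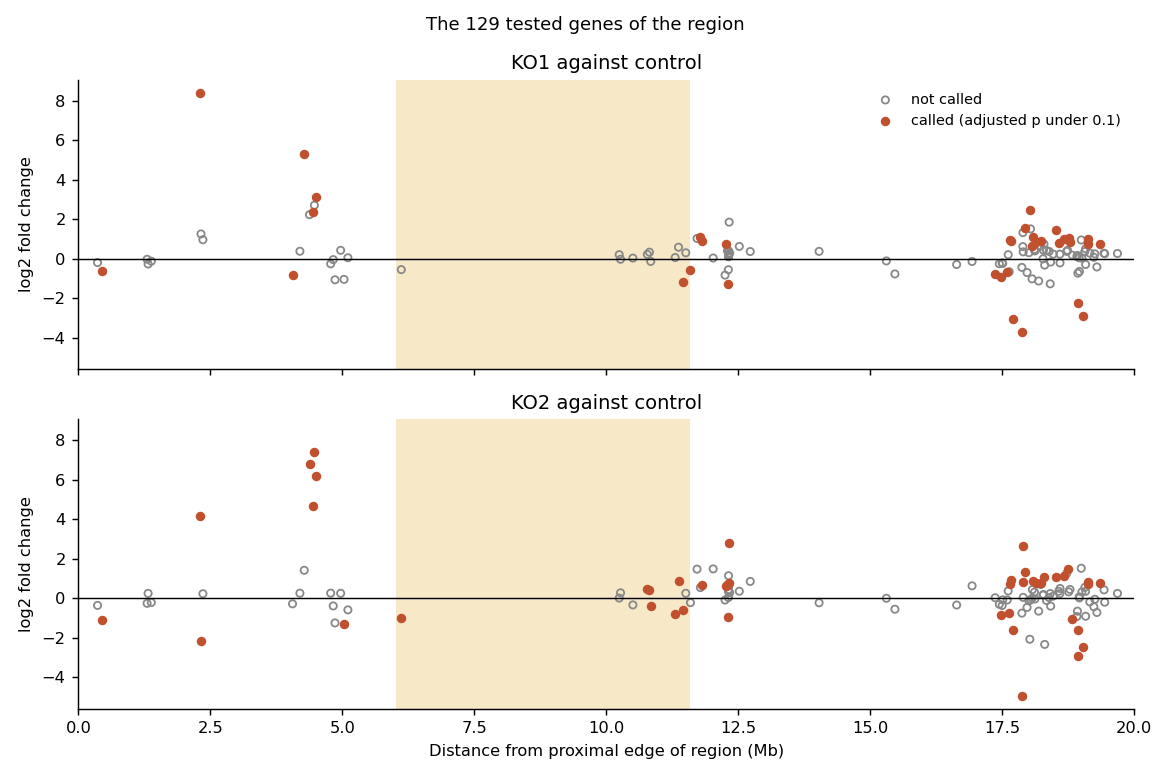
Log2 fold change of each of the 129 tested genes of the region (y axis) against its distance in Mb from the start of the region (x axis), KO1 over control in the upper panel and KO2 over control in the lower, with called genes filled and the stretch where 4T1 and NDL peak scores differed shaded. The largest rises are metalloproteinase and caspase genes near the proximal end, and the largest fall is Angptl6 near the distal end.

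The genes of the region took 0.711% and 0.696% of the gene counts in the control libraries and more in most knockout libraries. The share was 0.838%, 0.827% and 0.865% in KO1, and 0.923%, 0.918%, 0.673% and 0.893% in KO2. The low KO2 value, below both controls, was replicate 3.

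The metalloproteinase cluster, 10 genes between 7272514 and 7699585, held several of the largest rises of the region, and they differed by clone. The 5 tested members were Mmp3 and Mmp10 (stromelysins), Mmp1a and Mmp1b (interstitial collagenases) and Mmp13 (collagenase 3). In KO against control 3 of the 5 rose (Mmp10, Mmp1b and Mmp3), with a median log2 fold change of 5.52 over the 5. Mmp10, Mmp3 and Mmp13 rose in KO1, Mmp10, Mmp1a, Mmp1b and Mmp3 rose in KO2, and all 5 differed between the clones. Over all genes tested 11.9% were called higher in KO, 15.9% in KO1 and 16.5% in KO2, and 19.6% were called between the clones. Mmp1a and Mmp1b, with 2 control counts each, passed the filter on low counts through knockout libraries. The number of tested members, their calls and their median are thus partly set by that filter. The summed level of all 10 genes of the cluster was 14.2 and 6.80 CPM in the controls, 15.3, 55.8 and 178 in KO1, and 303, 383, 188 and 206 in KO2, so 1 KO1 library was near the higher control and each KO2 library was above all others.

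Mmp3 was at 13.1 and 5.37 CPM in control, 9.94, 28.3 and 104 in KO1, and 270, 368, 153 and 166 in KO2. The lowest KO1 library lay between the controls, and the KO2 libraries were all above KO1. The log2 fold change was 4.08 ± 1.31 (SE) in KO against control (adjusted p = 0.0625, edgeR quasi-likelihood test with Benjamini-Hochberg adjustment, as for all adjusted p-values here), 2.35 ± 0.88 for KO1 (adjusted p = 0.0827) and 4.69 ± 0.98 for KO2 (adjusted p = 0.0101). KO1 was lower than KO2 by a log2 difference of -2.34 ± 0.72 (adjusted p = 0.0653). The KO1 value rested on replicate 3, without which it was 1.04 (adjusted p = 0.290), and its call was also lost without control replicate 1 (adjusted p = 0.176), control replicate 2 (adjusted p = 0.363) or KO2 replicate 1 (adjusted p = 0.103). The difference between the clones was -3.65 without KO1 replicate 3 and lost its call without KO1 replicate 1, KO1 replicate 2 or KO2 replicate 1 (adjusted p = 0.127, 0.218 and 0.113). The KO2 call was lost without control replicate 2 (adjusted p = 0.107), and that of KO against control without either control (adjusted p = 0.259 and 0.363).

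Mmp10 was at 0.198 and 0.366 CPM in control, 0.669, 2.39 and 4.22 in KO1, and 21.1, 7.96, 26.2 and 27.4 in KO2. The 3 groups did not overlap and KO2 was highest. The log2 fold change was 5.52 ± 1.60 in KO (adjusted p = 0.0438), 3.11 ± 0.85 for KO1 (adjusted p = 0.0281) and 6.21 ± 0.94 for KO2 (adjusted p = 0.00290), and -3.10 ± 0.65 between KO1 and KO2 (adjusted p = 0.0194). Without control replicate 1 or 2 the calls of KO (adjusted p = 0.304 and 0.245) and of KO1 (adjusted p = 0.201 and 0.119) were lost, while those of KO2 and of the clone difference held.

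Mmp13 went the other way between the clones. It was at 0.724 and 0.915 CPM in control, 4.49, 24.7 and 69.0 in KO1, and 1.31, 2.86, 2.60 and 2.04 in KO2. Each KO1 library was above each KO2 library, and the KO2 libraries were a little above control. KO1 rose by 5.32 ± 1.05 on the log2 scale (adjusted p = 0.00799), KO2 gave 1.43 ± 0.86 (adjusted p = 0.260), and the difference was 3.89 ± 0.72 (adjusted p = 0.0134).

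Mmp1a and Mmp1b were nearly absent from control and high in KO2. Each had 2 counts in control replicate 1 and 0 in replicate 2. Mmp1a was at 5.52, 2.06, 4.68 and 6.99 CPM in KO2 and at 0 to 0.433 in KO1, and Mmp1b at 4.97, 2.82, 1.65 and 3.25 in KO2 and 0.032 to 0.271 in KO1. On pooled counts Mmp1a was 204 times its control level in KO2 (exact 95% counting interval 56.3 to 1688) and 6.03 times in KO1 (1.47 to 53.2), and Mmp1b 122 times (33.7 to 1013) and 4.52 times (1.05 to 40.8). The clones differed in the fit, by -4.73 ± 1.03 for Mmp1a (adjusted p = 0.0225) and -4.60 ± 0.76 for Mmp1b (adjusted p = 0.00911). Mmp1a lost its KO2 call without control replicate 2 (adjusted p = 0.101) and its clone difference without KO1 replicate 2 (adjusted p = 0.109), and the Mmp1b call of KO against control (adjusted p = 0.0968) was lost without any 1 of the controls or KO2 libraries (adjusted p from 0.113 to 0.413). The paralogs may share reads, so the split between them is uncertain.

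The members that did not pass the filter were Mmp7 (matrilysin), Mmp8 (neutrophil collagenase), Mmp12 (macrophage elastase), Mmp20 (enamelysin) and Mmp27. Mmp8 and Mmp27 had 0 counts in all libraries, Mmp7 at most 1, Mmp20 at most 2 and Mmp12 at most 10. ChIRP peaks in the cluster lay mainly in these genes: in the 4T1 total list Mmp8, Mmp27 and Mmp7 held 2 peaks each and Mmp20 held 1, Mmp13 held 2 and Mmp3 held 1 with a score of 20.4, and Mmp10, Mmp1a, Mmp1b and Mmp12 held 0. The highest scores were 376.4 in Mmp8, 345.4 in Mmp13 and 284.5 in Mmp27.

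**Figure D5:**
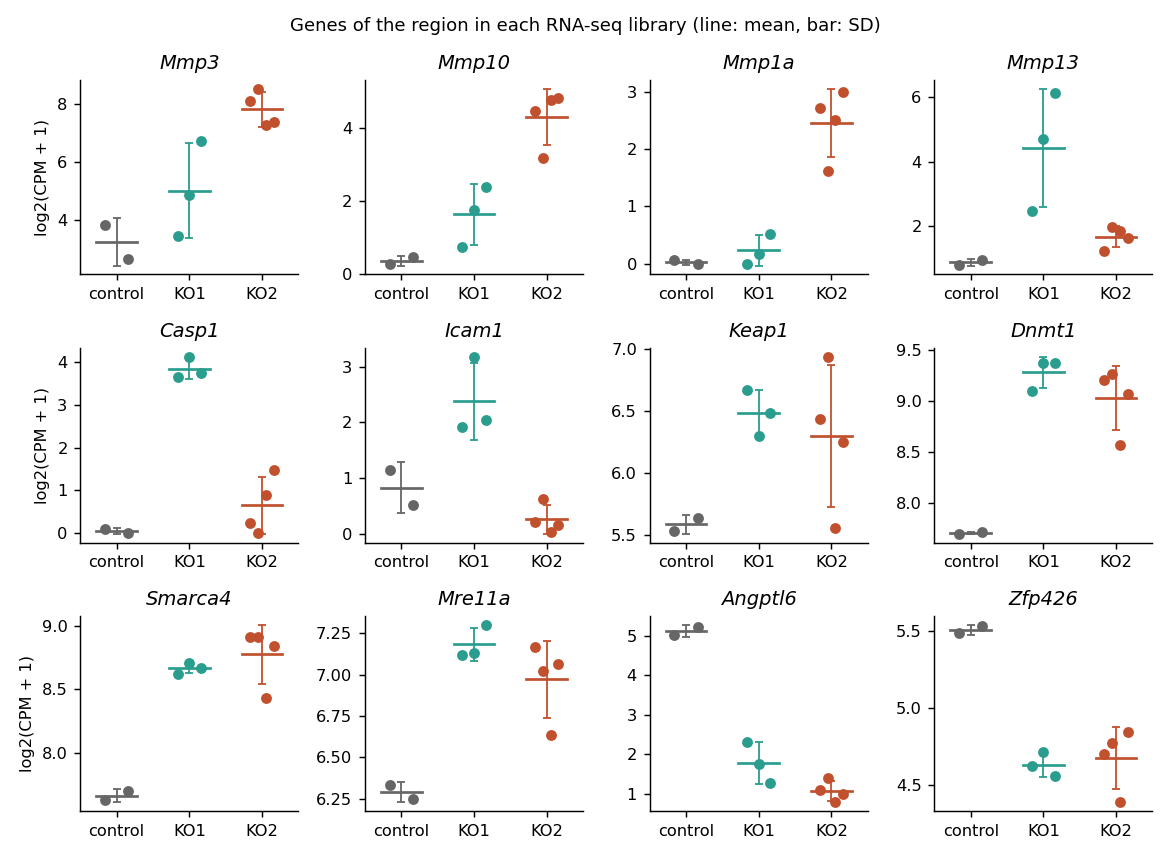
Level of 12 genes of the region in log2(CPM + 1) (y axis) in each library of control (2), KO1 (3) and KO2 (4), with a line at the group mean and a bar of 1 SD. Mmp10 and Mmp1a are highest in KO2, Mmp13 and Casp1 in KO1, Dnmt1 and Smarca4 are raised in both clones, and Angptl6 is lowered in both.

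The apoptosis inhibitors and inflammatory caspases had 5 tested members, of which 0 passed in KO against control with edgeR, 1 had an unadjusted p under 0.05 and DESeq2 called 1. Casp1 rose in KO1, and Casp1 rose and Casp4 fell in KO2. Over all genes tested 22.6% were called in KO against control, 31.6% in KO1 and 31.4% in KO2. Casp1, the inflammasome protease that matures interleukin 1 beta, was at 0.066 and 0 CPM in control, 11.7, 16.5 and 12.4 in KO1, and 0.167, 0, 0.859 and 1.78 in KO2. The KO1 libraries were above all others. On 3 pooled control counts it was 340.0 times the control level in KO1 (116 to 1650) and 22.4 times in KO2 (7.5 to 110.0). KO1 passed at an adjusted p of 0.00935 and KO2 at 0.0837, and the clones differed by 4.21 ± 0.97 (adjusted p = 0.0261). Casp4, a caspase that senses intracellular lipopolysaccharide, was at 0.373 and 2.17 CPM in control, 1.43, 4.84 and 2.79 in KO1, and 0.641, 0.253, 0.090 and 0.143 in KO2. It fell in KO2 by 2.17 ± 0.84 on the log2 scale (adjusted p = 0.0929), and KO1 exceeded KO2 by 3.42 ± 0.79 (adjusted p = 0.0259). The KO2 calls of both caspases were fragile: 7 of the 9 libraries, left out in turn, ended each of them (adjusted p from 0.101 to 0.341 for Casp1 and from 0.102 to 0.837 for Casp4, whose KO2 value was -0.42 without control replicate 2). The clone difference of Casp4 was lost without KO1 replicate 2 (adjusted p = 0.107).

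Birc3, an inhibitor of apoptosis and ubiquitin ligase, was at 28.5 and 29.2 CPM in control, 13.8, 14.0 and 13.4 in KO1, and 19.1, 16.5, 0.497 and 12.8 in KO2. The control libraries were above all others, and KO2 replicate 3 was far below its group. The log2 fold change of -1.16 ± 0.75 did not pass the test (adjusted p = 0.316). For Birc2 it was -0.23 ± 0.23 and for Casp12 0.59 ± 0.61, neither called in any of the 4 comparisons.

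Of the listed transcription coactivators and chromatin genes, 7 of 8 were tested, and 3 rose in KO against control, 4 in KO1 and 3 in KO2, with 0 lower. Over all genes tested 11.9%, 15.9% and 16.5% were called higher in these comparisons, and 10.7%, 15.7% and 15.0% lower. Dnmt1, the maintenance DNA methyltransferase, at 20907209 to 20959888, was at 207 and 209 CPM in control, 548, 659 and 658 in KO1, and 589, 613, 379 and 537 in KO2. Every knockout library was above both controls, with a log2 fold change of 1.45 ± 0.21 (adjusted p = 0.00327), 1.58 ± 0.22 for KO1 (adjusted p = 0.00172) and 1.35 ± 0.21 for KO2 (adjusted p = 0.00299). Smarca4, the ATPase of the SWI/SNF remodelling complex, was at 196 and 207 CPM in control, 394, 417 and 407 in KO1, and 482, 481, 345 and 459 in KO2. It rose by 1.08 ± 0.16 (adjusted p = 0.00360), and its lowest knockout library, KO2 replicate 3, was still above control.

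Mre11a, a nuclease of double-strand break repair, rose by 0.79 ± 0.18 (adjusted p = 0.0168), from 79.7 and 75 CPM in control to 138, 139 and 157 in KO1 and 143, 129, 98.2 and 133 in KO2. Leaving out either control library ended this call (adjusted p = 0.159 and 0.186). Dnmt1 and Smarca4 kept theirs under each alternative that was run. In the two-sided exact permutation test on log2(CPM + 1), each of these 3 genes reached p = 0.0278, the smallest that the 36 ways of choosing 2 of 9 libraries allow. All 3 had no overlap between control and knockout libraries, as did 34.4% of all genes tested. The test takes each library as a separate unit, though those of KO1 and those of KO2 each come from a single clone.

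Carm1, an arginine methyltransferase coactivator, was called in KO1 alone, from 86.1 and 76.8 CPM in control to 145, 135 and 150. Its log2 fold change was 0.82 ± 0.18 (adjusted p = 0.0126), and KO1 exceeded KO2 by 0.46 ± 0.15 (adjusted p = 0.0747). The first was lost without control replicate 2 (adjusted p = 0.120), and the clone difference without either control, any KO1 library or KO2 replicate 4 (adjusted p from 0.118 to 0.184). Yap1, the Hippo pathway coactivator, was at 164 and 154 CPM in control, 216, 212 and 210 in KO1, and 207, 225, 125 and 203 in KO2. All libraries but KO2 replicate 3 exceeded control, and its change of 0.33 ± 0.21 was not called (adjusted p = 0.299). Maml2, which held 23, 20, 15 and 10 peaks in the 4 lists, changed by -0.16 ± 0.39 (adjusted p = 0.812). The histone demethylase gene Kdm4d was not tested.

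Among the stress, adhesion and signalling genes, 12 of 13 were tested. In KO against control 3 rose and 0 fell, in KO1 3 rose and 1 fell, and in KO2 4 rose and 1 fell. Over all genes tested 22.6%, 31.6% and 31.4% were called in these comparisons, so counts on so short a list are not read as a trait of it. Cdc37, the kinase-directed Hsp90 cochaperone, rose by 0.82 ± 0.19 (adjusted p = 0.0192). Keap1, the adaptor that targets Nrf2 for degradation, was at 45.4 and 49.0 CPM in control, 101, 77.6 and 88.3 in KO1, and 85.7, 121, 46.2 and 75.2 in KO2, and rose by 0.85 ± 0.30 (adjusted p = 0.0847). KO2 replicate 3 lay between the controls, and the call was lost without either control, any KO1 library or KO2 replicate 1 (adjusted p from 0.104 to 0.391). Cdkn2d, a CDK4 and CDK6 inhibitor, rose by 0.96 ± 0.31 (adjusted p = 0.0646), from 22.3 and 25.3 CPM in control to 36 to 43.2 in KO1 and 28.3 to 68.7 in KO2. Without control replicate 1 or 2, Cdc37 (adjusted p = 0.192 and 0.165) and Cdkn2d (adjusted p = 0.363 and 0.279) were not called.

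Icam1, a leukocyte adhesion receptor, was at 1.23 and 0.427 CPM in control, 2.79, 8.03 and 3.11 in KO1, and 0.167, 0.547, 0.023 and 0.123 in KO2. KO1 lay above control and KO2 below it, apart from 1 KO2 library between the controls, and the clones differed by 4.53 ± 0.83 (adjusted p = 0.0128). KO1 passed against control by a narrow margin (2.47 ± 0.95, adjusted p = 0.0914) that was lost without either control, any KO1 library or KO2 replicate 1 (adjusted p from 0.109 to 0.390).

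Sesn3, a stress-induced inhibitor of mTORC1 signalling that lies in the stretch where 4T1 and NDL peaks differed, was at 47.7 and 48.0 CPM in control, 43.0, 57.4 and 49.2 in KO1, and 19.6, 36, 31.4 and 23.1 in KO2. It fell in KO2 by 0.80 ± 0.24 on the log2 scale (adjusted p = 0.0403), and the clones differed by 0.86 ± 0.22 (adjusted p = 0.0349). Amotl1, an angiomotin family partner of Yap1, fell in KO1 by 0.58 ± 0.20 (adjusted p = 0.0629), from 630 and 619 CPM to 363, 428 and 459. Sesn3 in KO2 was not called without control replicate 1 or 2 (adjusted p at most 0.201), nor its clone difference without KO1 replicate 2 (adjusted p = 0.147), nor Amotl1 without either control, KO1 replicate 1 or KO1 replicate 2 (adjusted p from 0.128 to 0.266). Tyk2, Icam5, Dnm2, Pde4a and Panx1 were called in none of the 4 comparisons.

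Of the 129 tested genes, 42 had no overlap between control and knockout libraries (34.4% of all genes tested had none). Among those that were also called and averaged at least 1 CPM, 15 rose and 8 fell, and the 6 strongest in each direction are named here. The rises were led by Mmp10, Dnmt1, Tmed1, Smarca4, Cdkn2d and Raver1. Tmed1, a cargo receptor of the early secretory pathway, rose by 1.25 ± 0.33 (adjusted p = 0.0289), from 15 and 15.3 CPM to 33.6 to 52.7 in KO1 and 20.3 to 40.1 in KO2. Raver1, a splicing cofactor, rose by 0.96 ± 0.23 (adjusted p = 0.0192), from 110 and 112 CPM to 222 to 250 in KO1 and 132 to 238 in KO2. Without control replicate 1 or 2 neither Tmed1 (adjusted p = 0.226 and 0.214) nor Raver1 (adjusted p = 0.187 and 0.174) was called.

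The strongest fall was in Angptl6, a secreted angiopoietin-like factor at 20873808 to 20879727. It was at 31.4 and 36.6 CPM in control, 3.98, 2.39 and 1.41 in KO1, and 1.14, 1.64, 0.724 and 1.00 in KO2. All knockout libraries were several fold below both controls, with a log2 fold change of -4.27 ± 0.49 (adjusted p = 0.00125), and KO1 stayed above KO2 by 1.22 ± 0.38 (adjusted p = 0.0676). That clone difference was 0.76 without KO1 replicate 1 (adjusted p = 0.260) and was also lost without either control, KO1 replicate 2, KO2 replicate 1 or KO2 replicate 4 (adjusted p from 0.114 to 0.161). It overlaps the A230050P20Rik transcript, whose own change of -0.61 ± 0.46 was not called (adjusted p = 0.401), with a counting strand not given in the sources used here.

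Plppr2, a phospholipid phosphatase-related membrane protein, was at 6.70 and 6.71 CPM in control, 1.85, 1.06 and 1.38 in KO1, and 0.641, 0.211, 0.837 and 1.74 in KO2, a change of -2.59 ± 0.55 (adjusted p = 0.0133). Zfp426, a zinc finger gene, was at 43.8 and 45.2 CPM in control, 23.6, 25.2 and 22.5 in KO1, and 25, 26.4, 19.9 and 27.7 in KO2. The knockout libraries clustered tightly well below control, a change of -0.87 ± 0.16 (adjusted p = 0.00724). The other falls were Cfap300, a cilia assembly factor (-1.20 ± 0.41, adjusted p = 0.0781), Taf1d, a subunit of the RNA polymerase I factor SL1 (-1.08 ± 0.23, adjusted p = 0.0134), and Cwf19l2 (-0.88 ± 0.20, adjusted p = 0.0160). Without control replicate 1 or 2, Plppr2 (adjusted p = 0.125 and 0.119), Zfp426 (0.112 and 0.119), Cfap300 (0.370 and 0.322) and Cwf19l2 (0.152 and 0.182) lost these calls. Taf1d lost its call without control replicate 1 (-0.70, adjusted p = 0.268). Cfap300 also did without KO1 replicate 2, KO1 replicate 3 or KO2 replicate 1 (adjusted p from 0.106 to 0.126).

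The genes with the strongest changes varied in their peaks. In the 4T1 total list Dnmt1 held 1 peak with a score of 415.6 and Smarca4 held 1 with a score of 22.8, and Mmp13 held 2, the higher at 345.4, while Mmp10, Casp1, Tmed1, Raver1, Angptl6, Taf1d and Cwf19l2 held 0. Peak 5, with the fifth highest score of the region, lay between 20858551 and 20859175, proximal to Angptl6 and nearest to the start of A230050P20Rik.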

How the data were processed

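The 9 RNA-seq libraries were deposited as counts per gene, which the authors made with STAR and HTSeq on GENCODE vM5. The KO2 replicate 2 table listed each gene 3 times identically and was used once. The 4 peak lists hold the peak score that the authors obtained with Bowtie2 on GRCm38 and HOMER, called over pooled pulldowns against the Ppib pulldown and annotated with GENCODE vM16. Rows that name no gene took 33.9% to 37.0% of reads and were left out.

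Counts were tested over all genes with edgeR 4.0.16 in R 4.3.3 (quasi-likelihood test, TMM, filterByExpr, Benjamini-Hochberg, threshold 0.1), KO as 1 group or as 3 groups. DESeq2 1.42.0 was an alternative, and the fits were checked on simulated data. The named genes were those on the region's lists, the 6 that rose and fell most without overlap at a mean of 1 CPM or more, and those at the 10 highest peaks; some listed genes are not reported here. Genes were placed with GENCODE vM21, oligos came from the study's supplementary table, and peaks were handled in Python 3.11.15. The members and lists were chosen with earlier results of these data known.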

Additional observations from a re-analysis of the deposited data

Results flagged for a closer look

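Of 38 groups of 4 libraries checked for a library far from the others, 2 held one, both KO2 replicate 3, and chance gives about 1 in 20. Smarca4 was at 344.9 CPM there and at 459 to 482 in the other KO2 libraries, and the region's share of gene counts was 0.673% there and 0.893% to 0.923% in the others.

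The clones differed from each other, by the edgeR contrast of KO1 with KO2, in 12 of the 37 named genes tested. That contrast called 19.6% of all genes tested and 17.1% of those in the region. Some named genes were picked for a large change, so the count is not a share that describes the region's genes. As log2 differences with KO2 as the base, KO1 was lower in Mmp10 (-3.10), Mmp1a (-4.73), Mmp1b (-4.60) and Mmp3 (-2.34). It was higher in Mmp13 (3.89), Casp1 (4.21), Casp4 (3.42), Icam1 (4.53), Angptl6 (1.22), Sesn3 (0.86), Carm1 (0.46) and Cwf19l2 (0.44). Those of Carm1, Angptl6 and Cwf19l2 were lost under several alternatives.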

How the results depend on the processing

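KO against control gave 29 calls, 18 at a threshold of 0.05, 17 with a replicate block and 3 to 35 with 1 library left out (3 without control replicate 1, 4 without control replicate 2, 35 without KO2 replicate 3). KO1 against control gave 35, 64 with the KO2 libraries out of the fit, and 12 to 46 with 1 library left out. KO2 against control gave 44, 29 at 0.05, 29 with the KO1 libraries out, and 8 to 58 (58 without KO2 replicate 3). KO1 against KO2 gave 22, 9 at 0.05, 14 without the controls, 11 with a replicate block, and 5 to 32 (5 without KO1 replicate 2, 32 without KO2 replicate 3). Without 1 control, the lone control is assumed to vary like the other groups. Same-numbered libraries did not deviate together (r = -0.149 to 0.0429), so these values gave no sign of pairing by number. The 2 controls mirror each other in this measure, and a shared culture or batch was not tested.

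Of 69 calls of named genes, 22 held under every alternative run, 47 were lost under at least 1 and 0 reversed. Only uncalled values changed sign: Casp4 in KO against control, 0.20, became -0.46 in the fit of 3 groups, -0.56 without control replicate 1, and -0.50 and -0.037 without KO1 replicates 2 and 3 (-0.56 to 1.96 with 1 library left out), and Maml2, -0.16, ran from -0.33 to 0.054, the last without control replicate 2.

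The density ratio to the rest of chromosome 9 became 0.947, 1.06, 0.950 for 4T1 total, odd and even peaks scoring at least 100, and 0.982, 1.11 and 0.965 among each list's 10000 highest. Against other autosomes it was 1.06, 1.11, 1.02 and, for NDL, 0.810. In the first 10 Mb it was 0.729, 0.750 and 0.579 for 4T1 total, even and NDL, and in the last 0.979, 0.916 and 0.730. The NDL median percentile was 44.2 in the first 10 Mb. At a score of at least 100, 78.1% of 4T1 total peaks overlapped NDL. Shares with an oligo match of 10 or 14 bases were 62.2% and 4.88% (4T1 total), 63.9% and 4.32% (odd), 58.5% and 4.09% (even), 64.2% and 6.12% (NDL), and those at a score of at least 100 were 45.6%, 47.1%, 41.8% and 48.0%. Chosen after seeing the data, the stretch's median log2 ratio was 1.13 with the even and 1.95 with the odd list, whose medians over all shared peaks of the genome were -0.12 and 1.00. Where no value above shows a cause, the cause was not tested. Peak lists carry no depth or replicate spread, which limits every peak comparison to counting error.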

Other observations

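Outside the region, lists of genes tied by background knowledge to members of it were read from the same KO against control fit, in which 22.6% of all genes tested were called, 11.9% higher and 10.7% lower. Of 22 listed YAP targets 18 were tested, 2 rose and 1 fell. Axl, a receptor tyrosine kinase, rose by 1.29 ± 0.23 on the log2 scale (adjusted p = 0.00700, edgeR), and the stress gene Gadd45a changed by -3.16 ± 0.46 (adjusted p = 0.00317). Of 8 listed Nrf2 targets 3 rose and 1 fell, with G6pdx, the first enzyme of the pentose phosphate pathway, at 1.28 ± 0.21 (adjusted p = 0.00478, edgeR) and Slc7a11, the cystine transporter, at -2.96 ± 0.61 (adjusted p = 0.0121).

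Of 16 metalloproteinases and inhibitors on other chromosomes 12 were tested. The inhibitors Timp1 (1.03 ± 0.24, adjusted p = 0.0187) and Timp2 (1.09 ± 0.24, adjusted p = 0.0146) rose, and Mmp23 (-3.05 ± 0.39, adjusted p = 0.00185) and Mmp28 (-3.07 ± 0.78, adjusted p = 0.0267) fell in the edgeR fit. Mmp9, a gelatinase, was at 188 ± 30.6 CPM (SD, n = 2) in control and 56.0 ± 51.8 (SD, n = 7) in KO and did not pass (adjusted p = 0.147, edgeR). It fell in KO2 by 2.68 ± 0.66 on the log2 scale (adjusted p = 0.0199, edgeR).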
